A study of Caenorhabditis elegans with 18 samples.

Results

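The transcriptional response to loss of the mitochondrial protein CCO-1 was compared between wild-type N2 worms and lin-65(n3441) mutants of Caenorhabditis elegans, to ask how far that response depends on LIN-65. The quantity reported is the difference between responses, that is, the log2 change on cco-1 RNAi in lin-65 worms minus the log2 change in N2 worms. It rests on 12 of the 18 libraries, chosen by sample title, with 3 libraries in each of 4 groups: N2 on empty vector (EV), N2 on cco-1 RNAi, lin-65 on EV and lin-65 on cco-1 RNAi. All animals were whole L4 larvae, the last larval stage, kept at 20 °C since hatching on RNAi bacteria. The RNAi food was a mix of cco-1 RNAi and EV bacteria, so every group received the vector. The labels give the lin-65 allele by name only. The 6 remaining libraries, of met-2(ok2307) worms, were used here to choose genes from outside the 12. Apart from that they entered only the alternative fits of 18 and 16 libraries.

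CCO-1, now named COX-5B, is a nuclear-encoded subunit of cytochrome c oxidase, the last complex of the mitochondrial respiratory chain. Loss of such subunits triggers the mitochondrial unfolded protein response, in which transcription factors such as ATFS-1 and DVE-1 raise mitochondrial chaperone genes, hsp-6 and hsp-60 among them, together with metabolic and detoxification genes. LIN-65 is a nuclear protein known to work with MET-2, a histone H3 lysine 9 methyltransferase, in changing chromatin during this response. A negative difference means that a gene went up less, or down more, in the mutant, and a gene can reach it by a weaker change on RNAi or by a level on EV that already differs from N2.

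Library totals ran from 5141303 to 19261705 counts (median 12385456), so 3 counts corresponded to 0.156 to 0.584 CPM, the count scaled to the library total. The replicates of each group carry numbers, but no label ties them to separate cultures. Every p below therefore measures the spread between these libraries, which may be technical. For 1 library, lin-65 EV replicate 1, the strain label says N2 whereas its title and source name say lin-65(n3441). It was kept as lin-65, and its lin-65 transcript level of 6.63 CPM lay beside the 8.81 and 5.79 CPM of its group rather than the 12.5, 14.4 and 14.5 CPM of N2 on EV. This library also stood apart from its mates, deviating from its group mean by 0.635 on the log2 scale (SD over genes) against 0.174 to 0.451 in the other 11. Values without it are given beside the genes they change most, and for the gene lists also near the end.

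The target of the RNAi was lowered to a similar level in both strains. In N2, cox-5B had 771, 766 and 676 CPM on EV and 298, 304 and 325 CPM on cco-1 RNAi. In lin-65 it had 742, 557 and 507 CPM on EV and 280, 278 and 310 CPM on cco-1 RNAi. The RNAi libraries lay below every EV library within each strain, and cox-5B fell in N2 by 1.26 ± 0.19 (SE, log2) and in lin-65 by 1.06 ± 0.19, with edgeR adjusted p of 0.00437 and 0.0176. The difference between the responses was 0.20 with a 95% interval of -0.37 to 0.77 (0.39 without lin-65 EV replicate 1), and exchanging the strain labels within each diet in all 400 ways gave an exact permutation p of 0.385 (two-sided, on log2 CPM), where 0.005 is the smallest possible. The lin-65 gene itself had 23.02, 28.2 and 30.4 CPM in N2 on RNAi and 8.65, 9.63 and 11.7 CPM in the mutant, so the mutant was lower than N2 in every library on the same diet. It rose on RNAi in N2 (0.98 ± 0.23, edgeR adjusted p 0.0400), and its difference was -0.47 (interval -1.17 to 0.22, edgeR p 0.166 unadjusted). The exact permutation p was 0.580. Exchanging strain labels takes the strains as equal on each diet, but this gene had strain differences of -0.96 on EV and -1.435 on RNAi. For lin-65 the permutation therefore cannot test the difference between responses alone. The met-2 gene had a difference of -0.00 (interval -0.59 to 0.58), a value whose sign varied with the processing.

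No gene passed the test of the difference between responses in the edgeR fit of the 12 libraries. Of 14541 genes tested, 0 (0.0%) had an edgeR adjusted p under 0.05, and the smallest was 0.165. At an unadjusted p under 0.05 the same test gave 622 genes (4.28%), fewer than the 727 that a share of 5% would give, of which 466 were lower (3.2%) and 156 higher (1.07%) in lin-65. With the replicate number as a block, edgeR called 1 gene, catp-3 (adjusted p 0.0457). On the same 12 libraries DESeq2 called 15 genes lower and 0 higher, and limma voom with library quality weights called 53 lower and 14 higher. Without lin-65 EV replicate 1, edgeR called 7 genes lower (0.0473%) and 0 higher, and 2474 genes (16.7%) had an unadjusted p under 0.05, 1387 lower (9.37%) and 1087 higher (7.34%). The precision limits what could be seen, since for the 10507 genes with a mean of at least 5 CPM the 95% interval reached a median of 0.818 log2 units to either side.

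**Figure D1:**
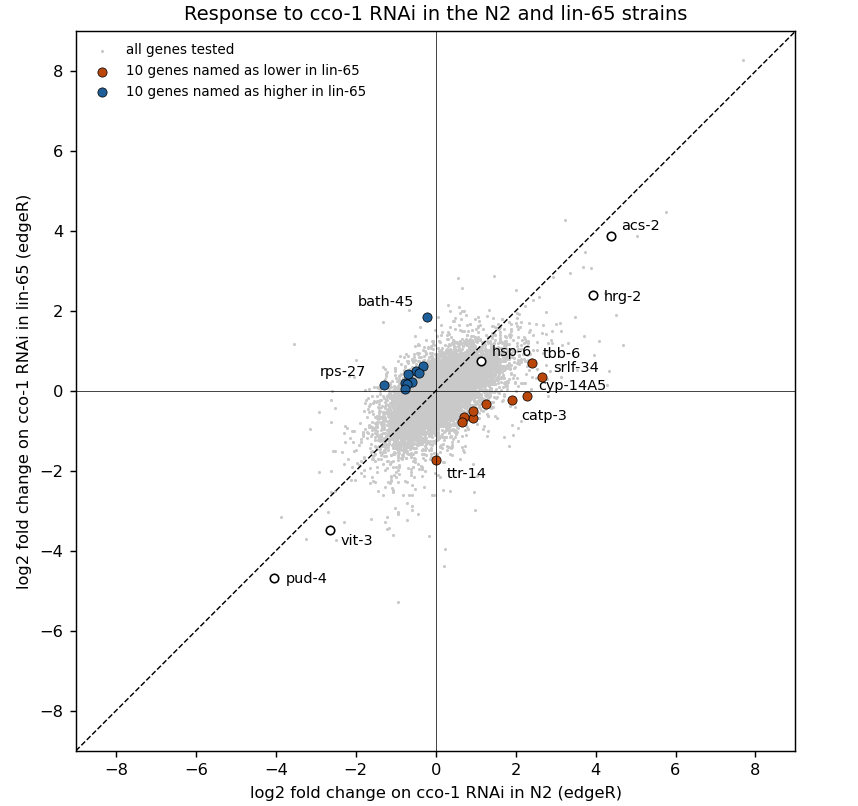
Log2 fold change on cco-1 RNAi in N2 (horizontal axis) against that in lin-65 (vertical axis) for the 14541 genes tested, with the diagonal of equal response dashed; filled points are the genes named for the difference and open points are genes named in the text for other reasons. The 10 genes named as lower lie to the right of and below the diagonal, catp-3 at 1.92 in N2 and -0.24 in lin-65. Also below the diagonal, but nearer to it than these, lie acs-2, pud-4 and vit-3, with differences of -0.49, -0.64 and -0.84.

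The mitochondrial chaperone genes showed no call in either direction. In N2, hsp-6, the mitochondrial Hsp70 gene and a common reporter of this response, had 223, 323 and 333 CPM on EV and 622, 583 and 712 CPM on cco-1 RNAi. The mutant libraries had 167, 440 and 350 CPM on EV and 524, 507 and 576 CPM on RNAi. Within both strains every RNAi library was above every EV library, while the RNAi libraries of lin-65 all lay below those of N2. The log2 change was 1.13 ± 0.29 in N2 (edgeR adjusted p 0.0555) and 0.75 ± 0.29 in lin-65 (0.265). Their difference was -0.38 with a 95% interval from -1.26 to 0.50 (exact permutation p 0.520), and -0.67 without lin-65 EV replicate 1, which holds the lowest hsp-6 value of the 12. The interval includes both no difference and the loss of the whole N2 response.

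The chaperonin gene hsp-60 passed in neither strain (edgeR adjusted p 0.451 and 0.990). It had 561, 470 and 544 CPM on EV and 441, 395 and 470 CPM on RNAi in N2, where the diets overlapped. In lin-65 the values were 727, 454 and 469 CPM on EV and 615, 529 and 512 CPM on RNAi, again overlapping. The difference was 0.28 (interval -0.36 to 0.92, exact permutation p 0.270), and 0.54 without lin-65 EV replicate 1. Of the 14 chaperone and protease genes tested, from a list of 17, 0 passed for the difference and 0 had an unadjusted p under 0.05. The median difference over the list was 0.176 against -0.042 over all genes, 0.077 without lin-65 EV replicate 2 and 0.415 without lin-65 EV replicate 1. In that last fit 5 of the 14 were higher and 1 lower at an unadjusted p under 0.05, where 7.34% of all genes were higher and 9.37% lower. The protease gene lonp-1 had a difference of 0.42 and hsp-75 of 0.56. The listed gene trap-1, whose place in this list was not checked, had -0.22 (-0.49 without lin-65 EV replicate 1). The interval of each included 0.

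**Figure D2:**
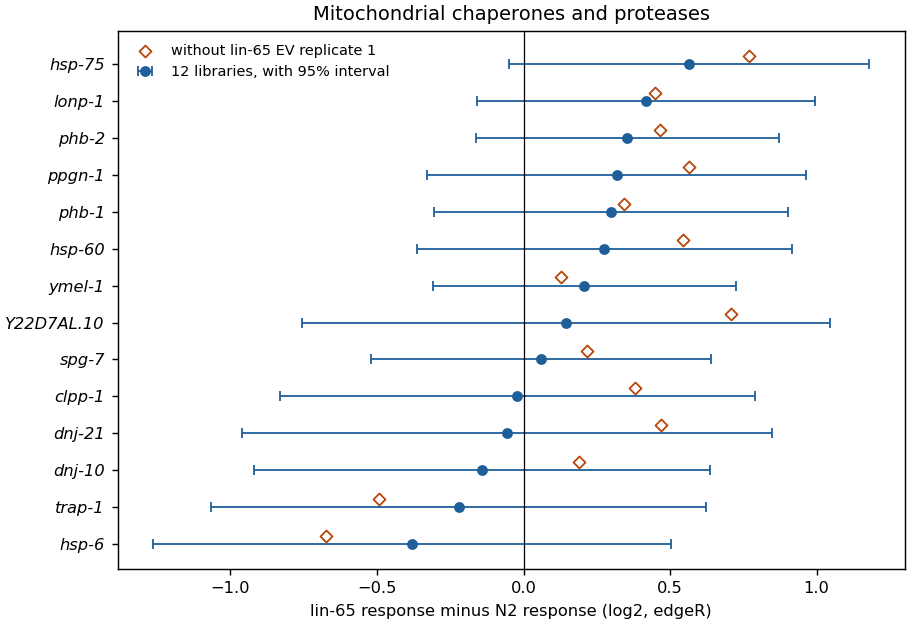
Difference between the responses (lin-65 minus N2, log2) for the 14 genes tested from the list of mitochondrial chaperones and proteases. Filled points and 95% intervals are from all 12 libraries, and open diamonds are without lin-65 EV replicate 1. Every interval spans 0, from hsp-6 at -0.38 to hsp-75 at 0.56.

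Genes that control the response were likewise without a call for the difference. All 24 listed regulators were tested, and 3 of them rose in N2 (edgeR, adjusted over all genes; background 2.04% higher) while 0 passed in lin-65 (background 0.248% higher) and 0 for the difference. The 3 were jmjd-1.2, a histone demethylase gene needed for this response (31.5 to 71.9 CPM, group means, in N2 and 37.1 to 57.9 in lin-65), the lipase gene atgl-1 (9.37 to 26.5 CPM in N2, 11.1 to 21.99 in lin-65) and lin-65 itself. The bZIP factor gene atfs-1 went from a mean of 40.4 to 55.1 CPM in N2 and from 45.2 to 50.0 in lin-65, a difference of -0.30 (interval -0.93 to 0.32). The homeobox gene dve-1 had a difference of -0.54 (-1.70 to 0.62), or -0.89 without lin-65 EV replicate 1, and ubl-5, a ubiquitin-like partner of DVE-1, of 0.59 (-0.27 to 1.44). Of the 24 genes for histone H3 lysine 9 methylation and the nuclear periphery, 1 was higher at an unadjusted p under 0.05 (1.07% over all genes). This was lin-13, with 105 and 82.1 CPM in N2 and 116 and 135 CPM in lin-65 (0.57, edgeR p 0.0455 unadjusted). Import genes gave 0 of 17 at that level, with a median of 0.127. Without lin-65 EV replicate 1, 6 of the 17 were higher (7.34% over all genes) and the median was 0.470, and without lin-65 EV replicate 2 it was 0.047. The import receptor gene tomm-70 rose in N2 with a difference of -0.13 (-0.20 without lin-65 EV replicate 1).

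Most of the genes with the smallest p among those lower in lin-65 shared a pattern across the 4 groups, in that every N2 EV library stood below all libraries of the other 3 groups; ttr-14 and idpc-5 were exceptions. The clearest was catp-3, which encodes a cation-transporting ATPase. In N2 it had 7.09, 9.57 and 9.46 CPM on EV and 27.5, 43.5 and 29.01 CPM on RNAi. Its lin-65 values were 26.5, 37.1 and 35.04 CPM on EV and 24.3, 33.6 and 25.8 CPM on RNAi. The mutant on EV thus overlapped N2 on RNAi and showed no further increase. The N2 change was 1.92 ± 0.25 (edgeR adjusted p 0.00149) and the lin-65 change -0.24 ± 0.24 (0.623), a difference of -2.15 ± 0.34 with an edgeR adjusted p of 0.165. Without lin-65 EV replicate 1 the difference was -2.26 and the adjusted p 0.0429, within a range of 7.22e-07 to 0.739 over the 25 alternatives, of which 7 called it. The difference was negative in all of them.

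The cytochrome P450 gene cyp-14A5 and srlf-34 followed. In N2, cyp-14A5 had 10.2, 13.2 and 11.3 CPM on EV and 44.6, 84.2 and 41.5 CPM on RNAi. In the mutant it had 41.7, 25.7 and 25.1 CPM on EV and 24.9, 31.9 and 28.4 CPM on RNAi. It rose in N2 (2.29 ± 0.30), while the diets overlapped in lin-65, and the difference was -2.40 ± 0.41 (edgeR adjusted p 0.227). For srlf-34 the N2 libraries had 1.70, 1.45 and 2.35 CPM on EV and 8.71, 14.99 and 11.9 CPM on RNAi. In lin-65 they had 4.45, 8.396 and 6.10 CPM on EV and 5.59, 9.17 and 9.13 CPM on RNAi. The mutant diets overlapped here too, and the difference was -2.32 ± 0.46 (0.421). Both genes were called by 5 of the 25 alternatives and kept their direction in all.

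Among the genes for small secreted proteins, cnc-4, which encodes a caenacin antimicrobial peptide, moved apart in all libraries of both strains, as did idpc-4. It had 16.96, 17.4 and 12.8 CPM on EV and 28.4, 33.4 and 27.9 CPM on RNAi in N2. In lin-65 it had 162, 92.1 and 124 CPM on EV and 79.0, 71.5 and 85.7 CPM on RNAi, far above N2 on both diets. It rose in N2 (0.93 ± 0.23, edgeR adjusted p 0.0449), and the lin-65 change of -0.68 ± 0.22 did not pass (0.192). The difference was -1.61 ± 0.31 (0.383). The transthyretin-like gene ttr-14 came to its difference of -1.72 ± 0.43 from the other side: its N2 values overlapped between diets (134, 118 and 118 CPM on EV, 96.5, 187 and 87.6 CPM on RNAi), and it fell in lin-65 from 301, 143 and 202 to 71.2, 68.9 and 57.01 CPM (edgeR adjusted p 0.0194).

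A beta-tubulin gene, tbb-6, rose in N2 from 2.47, 1.93 and 3.47 to 14.1, 13.6 and 14.5 CPM (2.40 ± 0.32). The mutant libraries had 6.14, 12.62 and 14.3 CPM on EV and 17.3, 18.9 and 17.4 CPM on RNAi. The mutant RNAi libraries were above all of the other 9, and lin-65 EV replicate 1 was the lowest of its group. The difference was -1.71 ± 0.43 (edgeR adjusted p 0.812), and -1.97 without lin-65 EV replicate 1 (0.0491, range 1.68e-05 to 1.0 over the 25 alternatives).

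The other 4 genes named as lower belong to families of repetitive or disordered proteins linked to the pharyngeal cuticle. The prion-like gene pqn-63 had 16.3, 16.7 and 20.0 CPM on EV and 42.9, 48.7 and 34.9 CPM on RNAi in N2. Its lin-65 values were 26.8, 42.7 and 54.4 CPM on EV and 30.1, 37.6 and 31.2 CPM on RNAi. It rose in N2 (1.25 ± 0.25), the lin-65 diets overlapped, and the difference was -1.57 ± 0.35 (edgeR adjusted p 0.619, and 0.0429 without lin-65 EV replicate 1). The genes idpc-4 and idpc-5 had differences of -1.36 ± 0.30 and -1.43 ± 0.37, and abu-11 had -1.44 ± 0.35. For abu-11 the means were 55.8 and 107 CPM in N2 and 113 and 79.4 CPM in lin-65. The pqn and abu genes are similar to each other in sequence, and reads may be shared among them. In the WBcel235 annotation pqn-63, idpc-4 and idpc-5 lie close together on chromosome V.

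**Figure D3:**
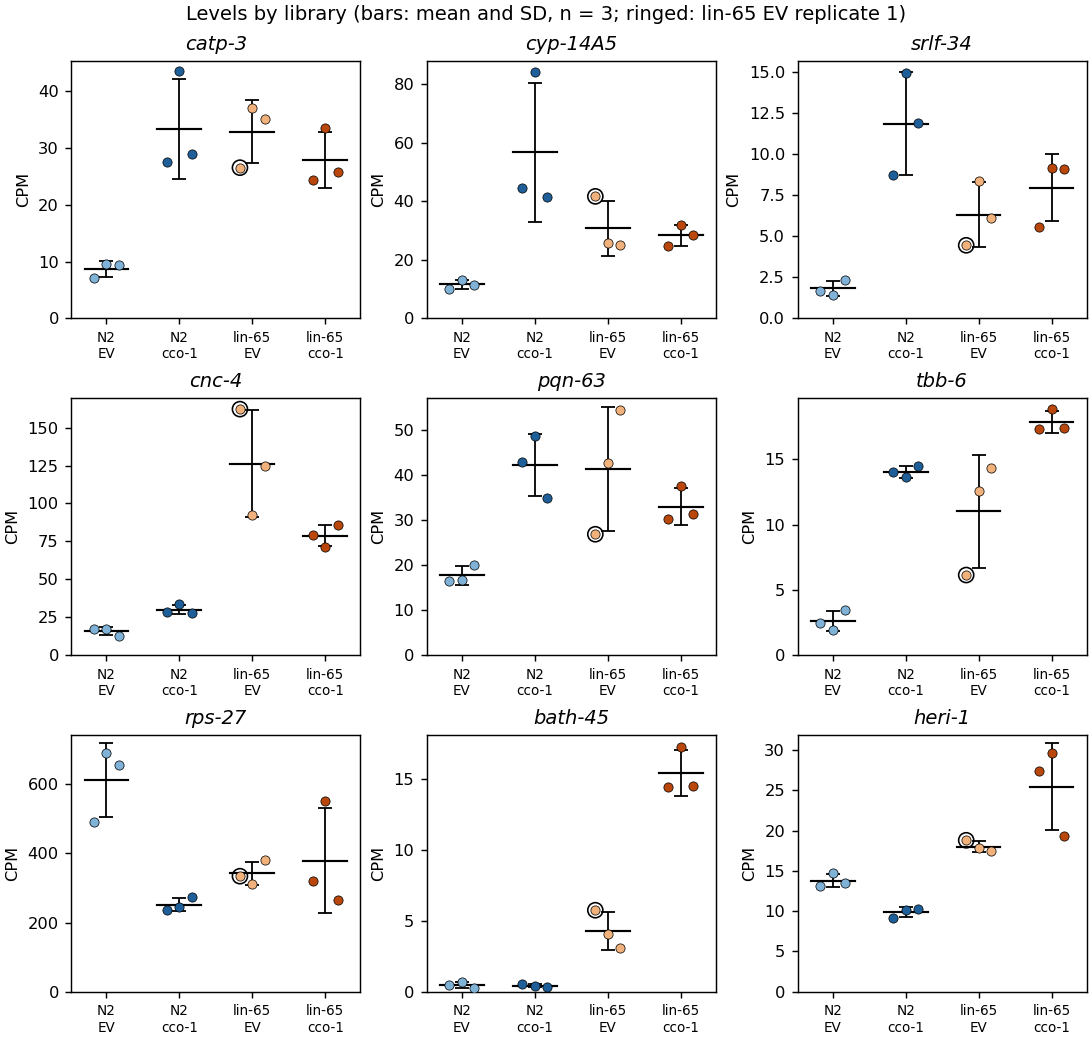
CPM by library in the 4 groups for 6 genes named as lower (upper and middle rows) and 3 named as higher (bottom row) in lin-65, each axis starting at 0, with the mean and SD of 3 libraries and a ring around lin-65 EV replicate 1. N2 on EV lies below the other groups in the upper 6 panels, with catp-3 at 8.71 ± 1.40 CPM there and at 32.9 ± 5.61 CPM in lin-65 on EV.

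Counts over the 10 genes named as lower describe where the difference sits. The 10 were chosen by the difference, so these counts are a description and no support for it. Of the 10, 6 rose in N2 (background 2.04%), 0 rose and 1 fell in lin-65 (0.248% and 0.481%), and 7 were higher in lin-65 than in N2 on EV (1.13%), but only 1, cnc-4, on RNAi (0.715%). In all 10, each of the 9 lin-65 differences between an RNAi and an EV library was below each of the 9 N2 ones, which held for 1.31% of all genes. Over the 466 genes lower at an unadjusted p under 0.05, the median log2 change was 0.751 in N2 and -0.409 in lin-65. The median strain difference over them was 0.642 on EV and -0.522 on RNAi.

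Of the 10 genes named as higher in lin-65, 2 fell on RNAi in N2 (0.832% over all genes) and 1 rose in lin-65 (0.248%). These 10 were also chosen by the difference, so the counts are a description and no support for it. The ribosomal protein gene rps-27 had 490, 691 and 655 CPM on EV and 237, 245 and 273 CPM on RNAi in N2. In the mutant it had 334, 313 and 380 CPM on EV and 321, 551 and 264 CPM on RNAi, overlapping. It fell in N2 by 1.28 ± 0.26 (edgeR adjusted p 0.0240), and the difference was 1.43 ± 0.36 (0.812). The aldehyde dehydrogenase gene alh-9 also fell in N2 (by 0.76 ± 0.19), with a difference of 0.81 ± 0.27.

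The gene that rose in lin-65 was bath-45, a BTB and MATH domain gene. It was at 0.463, 0.689 and 0.280 CPM on EV and 0.533, 0.375 and 0.321 CPM on RNAi in N2, where 3 counts correspond to 0.156 to 0.424 CPM. In lin-65 it had 5.74, 4.05 and 3.05 CPM on EV and 14.4, 17.3 and 14.5 CPM on RNAi. It rose in lin-65 (1.85 ± 0.30, edgeR adjusted p 0.0104), and it was higher in lin-65 than in N2 on both diets, by 3.15 ± 0.38 on EV and 5.23 ± 0.39 on RNAi. Its difference of 2.08 ± 0.58 (0.820) rests on low counts in N2.

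In heri-1, a chromodomain gene that limits inherited RNAi, and adr-2, an adenosine deaminase gene that acts on RNA, the libraries of the strains moved apart. For heri-1 the N2 values went from 13.1, 14.7 and 13.6 CPM on EV to 9.16, 10.1 and 10.3 CPM on RNAi. The lin-65 values went from 18.8, 17.8 and 17.4 to 27.4, 29.6 and 19.4 CPM. Neither change passed (edgeR adjusted p 0.192 and 0.285), and the difference was 0.98 ± 0.29 (0.978). The telomere-binding homolog pot-3, the fucosyltransferase gene fut-3, the vesicle tethering gene vps-39, the DNA polymerase gene rev-1 and neg-1 completed the 10, with differences of 0.85 to 1.13 and no edgeR adjusted p under 0.978.

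Some of the strongest changes on cco-1 RNAi passed in both strains and others in 1 strain only. In N2, 417 genes were called (2.87%), of which 296 rose (2.04%) and 121 fell (0.832%). In lin-65, 106 were called (0.729%), of which 36 rose (0.248%) and 70 fell (0.481%). With library totals alone as scaling the splits were 481 and 90 in N2 and 52 and 45 in lin-65, and after removal of a trend with 3′ UTR length the N2 split was 163 and 148. A block on the replicate number gave 833 calls in N2, where all 3 same-numbered pairs of EV and RNAi libraries deviated together (correlations of 0.164, 0.489 and 0.427), and 207 in lin-65, where not all did. The 31 genes that rose in both were 10.5% of the N2 risers and 86.1% of the lin-65 risers. The 29 that fell in both were 24% and 41.4%, and 0 genes moved in opposite directions. These counts do not show that N2 responded more, since the difference itself was called for 0 genes and the counts turn on single libraries. Without lin-65 EV replicate 2 the calls were 919 in N2 and 1101 in lin-65, and without lin-65 EV replicate 1 they were 2873 and 143. Leaving out any of the 6 N2 libraries gave 54 to 116 calls in N2. In N2 there were 272 and 193 calls without lin-65 RNAi replicates 1 and 2. In lin-65 there were 40, 69 and 28 calls without RNAi replicates 1, 2 and 3, and 61 without lin-65 EV replicate 3.

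The acyl-CoA synthetase gene acs-2 was among the highest in both. It had 3.85, 1.51 and 2.18 CPM on EV and 55.9, 39.6 and 53.6 CPM on RNAi in N2. The mutant libraries had 0.792, 2.70 and 4.07 CPM on EV and 31.2, 41.4 and 41.5 CPM on RNAi, and the difference was -0.49 (interval -1.76 to 0.77), or -0.89 without lin-65 EV replicate 1. The glucuronosyltransferase gene ugt-19 changed by 2.59 in N2 and 2.35 in lin-65 (difference -0.23, interval -0.95 to 0.48), and cyp-33C8 by 3.74 and 3.47. The cadmium-responsive gene cdr-4 changed by 2.34 and 1.69, and its difference of -0.65 had an interval of -1.23 to -0.06 (edgeR adjusted p 0.998). Of the genes that fell, pud-3 changed by -3.25 and -3.70, fat-7, a stearoyl-CoA desaturase gene, by -2.70 and -3.02, and the lectin gene clec-86 by -2.02 and -2.23.

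The heme-responsive gene hrg-2 rose in both but by different sizes. It had 3.39, 3.58 and 5.77 CPM on EV and 67.9, 52.5 and 79.2 CPM on RNAi in N2. Its lin-65 values were 10.6, 16.38 and 14.6 CPM on EV and 57.7, 63.7 and 98.2 CPM on RNAi. The RNAi levels overlapped and the EV levels did not, with every mutant EV library above those of N2 (1.68 ± 0.29, edgeR adjusted p 0.0104). Its difference was -1.54 (interval -2.39 to -0.69, edgeR adjusted p 0.812). The neuropeptide-like gene nlp-8 rose in N2 from 0.154, 1.102 and 1.46 to 8.98, 8.49 and 9.51 CPM. In the mutant it had 0.792, 3.58 and 2.35 CPM on EV and 1.26, 3.70 and 3.50 CPM on RNAi, with overlapping diets. The difference was -2.78 (interval -4.41 to -1.14, edgeR adjusted p 0.820). Also among the 10 highest in N2, clec-47 (3.15 in N2, 1.15 in lin-65) and cyp-13A12 (3.11, 1.70) were not called in lin-65. Nor were lin-41 (2.915, 1.505) and ippk-1 (2.70, 0.945). Among the 10 lowest in lin-65, col-135 (-3.61 in lin-65, -1.07 in N2) and gmd-2 (-2.98, -0.60) were not called in N2. Neither were nlp-25 (-2.92, -1.01) and ule-5 (-2.88, -0.60).

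Genes chosen in the met-2 libraries give a view of response size that uses none of the 12 libraries in the choice. The 12 genes that rose there (0.0838% of 14314 tested) had a median log2 change of 3.06 in N2 and 2.36 in lin-65. All 12 were positive in both strains. All 12 also had a difference below 0, as did 7214 of the 14541 genes tested. The 22 genes that fell there (0.154%) had medians of -1.03 in N2 and -3.03 in lin-65, and 21 of the 22 were lower in lin-65. The medians over all genes were 0.020 in both. Log2 changes in this paragraph are differences of mean log2 CPM with a prior count of 2, not edgeR estimates. By edgeR the medians over all genes were 0.012 in N2 and -0.002 in lin-65, and 7800 genes had a difference below 0. Without met-2 cco-1 RNAi replicate 1 the choice grew to 96 and 159 genes, with medians of 1.19 and 0.967 for those that rose and -0.661 and -1.21 for those that fell. In that choice 67 of the 96 and 133 of the 159 had a difference below 0, with median differences of -0.280 and -0.657, against -0.631 and -1.70 in the first choice. All 6 yolk genes, described next, were among the 22.

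Yolk genes gave the lowest list median of the difference, -1.51 over 6 vitellogenin genes, which encode yolk proteins made in the adult intestine. All 6 were below 0, against 7800 of the 14541 genes, and 2 were lower at an unadjusted p under 0.05 (3.2% over all genes). The list median was -0.871 without N2 cco-1 RNAi replicate 2. For vit-2 the N2 values were 1527, 3073 and 2451 CPM on EV and 1006, 2332 and 936 CPM on RNAi. In lin-65 they were 298, 584 and 425 CPM on EV and 38.04, 152.2 and 76.9 CPM on RNAi. The mutant was below N2 on both diets, and its diets did not overlap. The difference was -1.56 (interval -2.996 to -0.129, edgeR adjusted p 0.998). Levels of vit genes rise as larvae become adults, and the summed yolk level ranged from 3980 to 8660 CPM among the 3 N2 EV libraries alone; the part of developmental timing in the difference was not tested.

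Cuticle genes leaned the same way. Of the 125 col collagen genes tested, from a family of structural cuticle proteins, 0 passed, 31 were lower and 0 higher at an unadjusted p under 0.05 (24.8% of the family, against 3.2% lower over all genes), and 116 were below 0. The family median was -0.106 in N2 and -0.686 in lin-65, with a median difference of -0.627. Leaving out single libraries gave family medians from -0.789 to -0.461. The collagen gene col-125 had 553, 562 and 565 CPM on EV and 662, 868 and 727 CPM on RNAi in N2. In lin-65 it had 1311, 846 and 898 CPM on EV and 556, 680 and 651 CPM on RNAi. The strains moved apart with no overlap between diets, and the difference was -1.12 (interval -1.75 to -0.49; edgeR p 0.00191 unadjusted). All 10 adult cuticle collagens were below 0 (median -0.748, 2 at an unadjusted p under 0.05), rol-1 at -0.97 and col-144 at -1.29 among them, and the median was -0.477 without N2 cco-1 RNAi replicate 2. The 21 furrow and other larval collagens had a median of -0.018, with 0 at that level, and this median was -0.248 without N2 cco-1 RNAi replicate 2 and 0.248 without N2 EV replicate 2.

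Genes of the molt followed in part. The astacin protease gene nas-38 had 10.0, 8.61 and 10.6 CPM on EV and 25.2, 30.2 and 20.3 CPM on RNAi in N2. The mutant libraries had 14.6, 27.9 and 27.1 CPM on EV and 21.6, 30.2 and 27.8 CPM on RNAi. It rose in N2 (edgeR adjusted p 0.0223), and the difference was -1.18 (interval -1.99 to -0.36). Of 29 molting genes, 2 were lower at an unadjusted p under 0.05 (6.90%, against 3.2% over all genes) and 17 were below 0. Their median was -0.136, which was 0.109 without N2 EV replicate 2 and -0.391 without N2 EV replicate 3. Molting genes cycle within each larval stage, and the part of stage in these values was not tested.

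All 19 genes of the endoplasmic reticulum unfolded protein response had a difference below 0, against 7800 of the 14541 genes tested, with a median of -0.386. Of them 0 passed and 1 was lower at an unadjusted p under 0.05 (3.2% over all genes), the chaperone gene dnj-7 at -0.74. Without lin-65 EV replicate 1, 8 of the 19 were lower at that level (9.37% over all genes). The Hsp90 homolog enpl-1 had 149, 187 and 272 CPM on EV and 480, 358 and 433 CPM on RNAi in N2. Its lin-65 values were 125, 400 and 312 CPM on EV and 277, 312 and 402 CPM on RNAi, where the diets overlapped, and its difference was -0.82 (interval -1.88 to 0.24). The BiP gene hsp-4 had a difference of -0.38 (interval -0.91 to 0.14), and calreticulin, crt-1, had -0.55. The kinase gene pek-1 rose in N2, from a mean of 12.4 to 29.3 CPM, and went from 17.3 to 27.4 CPM in lin-65. Leaving out single libraries gave list medians from -0.561 to -0.277. The list mean of log2 CPM was 6.64 in lin-65 EV replicate 1 against 7.70 and 7.51 in its mates.

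Detoxification and immune families held single genes with lower values and medians a little below that of all genes. Of 51 cytochrome P450 genes, 8 rose in N2 and 3 in lin-65 (2.04% and 0.248% over all genes). Of them 5 were lower at an unadjusted p under 0.05 (9.80%, against 3.2% over all genes), and the median difference was -0.264 (-0.422 without N2 EV replicate 3). Of 58 UDP-glucuronosyltransferase genes, 9 rose in N2 and 4 in lin-65, and 4 were lower at that level (6.90%), with a median of -0.257. In this family ugt-26 had 7.71, 6.54 and 10.8 CPM on EV and 14.5, 23.9 and 15.4 CPM on RNAi in N2, against 8.41, 6.99 and 6.34 and then 4.15, 5.70 and 6.95 CPM in lin-65, a difference of -1.43 (interval -2.31 to -0.55). Of 27 innate immune genes, 3 were lower at an unadjusted p under 0.05, cnc-4, the antimicrobial peptide gene nlp-29 (-1.71, and -0.77 without lin-65 EV replicate 1) and the lysozyme gene lys-4 (-0.72). The 117 C-type lectin genes had 7 lower and 1 higher (6.84% in either direction, against 4.28% over all genes). The 185 nuclear hormone receptor genes had 2 lower (1.08%, against 3.2% over all genes).

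Lists with positive medians included those of the respiratory chain, the ribosome, RNA interference and histones. The 43 nuclear-encoded respiratory chain genes had a median of -0.242 in N2 and 0.028 in lin-65, with a median difference of 0.290, and 6 of the 43 were below 0. Of them 2 were higher at an unadjusted p under 0.05 (4.65%, against 1.07% over all genes), and without lin-65 EV replicate 1 10 were higher and 1 lower (7.34% and 9.37% over all genes). The list median was 0.185 without N2 EV replicate 1. The 12 protein-coding genes of the mitochondrial genome had a median of 0.431, which was 0.267 without lin-65 EV replicate 1 and 0.070 without lin-65 cco-1 RNAi replicate 3. The cytochrome c oxidase subunit gene COX3 had means of 4703 and 3132 CPM in N2 and 3699 and 4172 CPM in lin-65, a difference of 0.76 (interval 0.05 to 1.47). Over the cytosolic ribosome the median was 0.072, with 3 of 76 genes higher at an unadjusted p under 0.05, and 0.426 without lin-65 EV replicate 1, when 31 were higher. Of 37 RNA interference genes 3 were higher at that level, among them the Argonaute gene alg-3 (0.92, p 0.0296 by edgeR, unadjusted). Histone genes had a median of 0.641 over 29 genes, and 0.114 without lin-65 cco-1 RNAi replicate 1, so that value rests on 1 library.

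**Figure D4:**
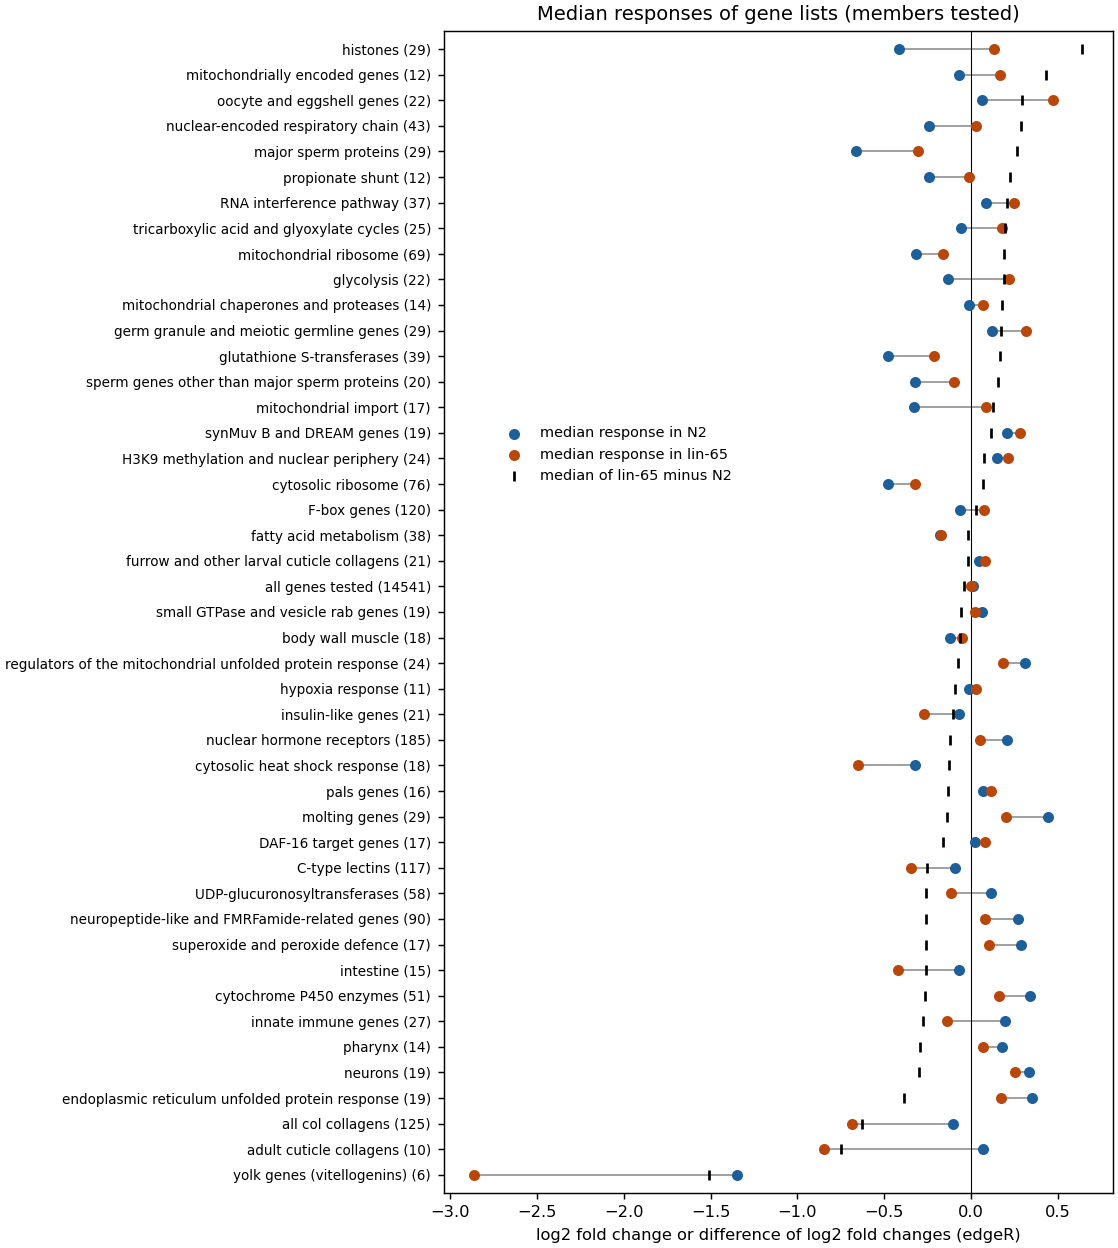
Median log2 change on cco-1 RNAi in N2 and in lin-65, and the median of the difference between them, for the gene lists with at least 10 members tested and the 6 yolk genes, ordered by the difference and drawn from the 48 lists other than the families counted after their values were seen, with the number of members tested in brackets. Yolk (-1.51), adult cuticle collagens (-0.748) and all col collagens (-0.627) lie lowest, and the value over all genes is -0.042.

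Markers of the main tissues were all detected. Pharynx markers summed to 258 to 292 CPM in N2 on EV and 276 to 339 on RNAi, against 168 to 265 and 208 to 240 CPM in lin-65, so on RNAi every mutant library was below every N2 library. Of 14 pharynx genes tested, 13 had a difference below 0 (median -0.294, and -0.135 without lin-65 EV replicate 2), against 7800 of all 14541. Of the 14, 0 had an unadjusted p under 0.05, or 2, both lower, without lin-65 EV replicate 1 (9.37% lower over all genes). Body wall muscle markers summed to 4620 to 5530 CPM in N2 on EV and 4620 to 5550 on RNAi, against 3700 to 5020 and 4090 to 4170 CPM in lin-65. On RNAi these too were lower in every mutant library than in every N2 library. Germ line markers summed to 782 to 995 and 719 to 784 CPM in N2 and to 952 to 1250 and 982 to 1090 CPM in lin-65. On RNAi they were higher in every mutant library than in every N2 library. Hypodermis and seam markers, which come from the tissue that makes cuticle, ran from 252 to 503 CPM in N2 on EV, 285 to 572 on RNAi, 417 to 638 in lin-65 on EV and 489 to 610 on RNAi. Neuronal markers were higher on RNAi in N2 (143 to 161 CPM against 199 to 248) and overlapped between diets in lin-65 (99.4 to 186 against 169 to 202). The part of tissue composition in the differences was not tested, and in whole worms fewer cells of a type and less RNA per cell cannot be told apart.

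The library that stood apart had the largest effect on the difference. Leaving out any of the other 11 gave 0 calls by edgeR and 462 to 755 genes at an unadjusted p under 0.05, and leaving out lin-65 EV replicate 1 gave 7 calls and 2474 such genes. The 7 were catp-3, pqn-63, tbb-6, pqn-74, T17H7.7, B0205.13 and Y58A7A.4, named here after their values were seen where the naming rule does not give them. Y58A7A.4 had 0.617, 0.344 and 0.952 CPM on EV and 12.7, 25.1 and 13.6 CPM on RNAi in N2. In the mutant it had 5.44, 3.35 and 3.52 CPM on EV and 8.83, 10.6 and 7.69 CPM on RNAi. B0205.13 rose in both strains, from a mean of 13.7 to 313 CPM in N2 and from 127 to 477 CPM in lin-65. T17H7.7 went from a mean of 32.6 to 90.8 CPM in N2. It had 36.7, 106 and 89.3 CPM on EV and a mean of 87.9 CPM on RNAi in lin-65, so that lin-65 EV replicate 1 alone of its group lay near the N2 EV level. Counts at an unadjusted p under 0.05 also grew in several lists without this library, as they did over all genes, to 9.37% lower and 7.34% higher. Then 9 of 29 molting, 19 of 185 nuclear hormone receptor, 9 of 61 UDP-glucuronosyltransferase and 4 of 6 yolk genes were lower. Of 37 RNA interference genes, 6 were higher and 2 lower.

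**Figure D5:**
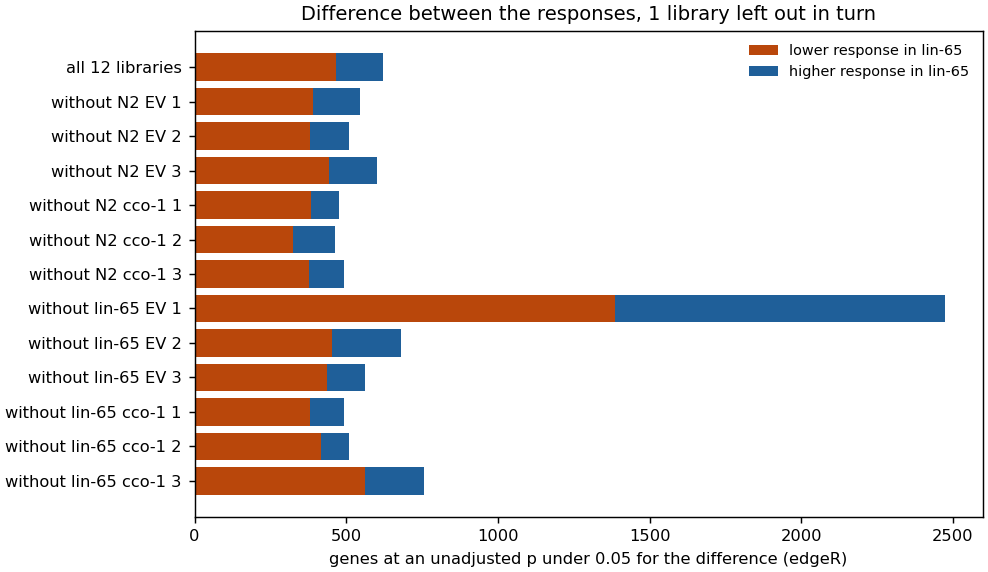
Number of genes with an unadjusted edgeR p under 0.05 for the difference between responses (horizontal axis), split into lower and higher in lin-65, with all 12 libraries and with each library left out in turn. Only the bar without lin-65 EV replicate 1 departs from the rest, at 2474 genes against 462 to 755.

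A trend with 3′ UTR length differed between libraries, and in N2 it moved with the diet. Whether it reflects library quality or the worms was not tested. The correlation across genes between 3′ UTR length and the deviation of a library from the mean was -0.353 to -0.115 (Spearman) in N2 on EV and 0.336 to 0.508 in N2 on RNAi, -0.576, 0.380 and -0.203 in lin-65 on EV and 0.110 to 0.266 in lin-65 on RNAi. Genes are not independent replicates, so these values carry no p. In the quartile of genes with the longest 3′ UTRs the median log2 change was 0.445 in N2 and 0.275 in lin-65, with a median difference of -0.183. In the quartile with the shortest it was -0.236 and -0.271, with -0.039. Without lin-65 EV replicate 1 the median difference was -0.354 in the longest quartile and 0.231 in the shortest. With the trend removed per library, an alternative added after the data were seen, edgeR called 0 genes for the difference, and 757 had an unadjusted p under 0.05, 451 lower and 306 higher, against 466 and 156 before. The 10 genes named as lower kept their sign. List medians with the trend removed were -0.553 for col collagens, -1.47 for yolk genes, -0.384 for the endoplasmic reticulum genes and -0.090 for neuronal genes, which had been at -0.299.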

How the data were processed

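The deposited files hold raw read counts per gene model, 1 column per library, which the authors made from polyA RNA of whole L4 lysates with ScriptSeq v2 libraries, per the labels' protocols. Per the submitters' processing notes, Bowtie 0.12.7 and DESeq were used; no source used here gives their roles, the genome build or the strand setting. Of 20505 gene models, 20074 were matched by sequence name to WBcel235 genes (Ensembl 115); the other 431 held 0.148% of counts. Genes were filtered with filterByExpr by group (14541 tested, 5964 not). edgeR 4.0.16 (R 4.3.3) was fitted to the 12 libraries with TMM factors and group means. Its robust quasi-likelihood test (two-sided, Benjamini-Hochberg over all genes, threshold 0.05) gave the log2 changes, SE and 95% intervals. The values for genes chosen in met-2 instead use mean log2 CPM with a prior count of 2. CPM use TMM-scaled totals. Exact permutations used log2 CPM with a prior count of 2 and take the strains as equal on each diet. Replicates of a group differed by more than counting noise (chi-square per degree of freedom 10.4 to 156). Named genes are 10 per direction for the difference, by smallest p where none passed, with a mean of at least 5 CPM in 1 group and a letters-number symbol, plus the highest and lowest responses under the same conditions in N2, lin-65 and met-2, and hsp-6, hsp-60, cox-5B, met-2 and lin-65. The members and the 48 gene lists were chosen with earlier results of these data known. DESeq2 1.42.0, limma 3.58.1 and other alternatives (25 in all) are given in the closing section. The edgeR fit of the difference was tested on simulated data, and the other fits were not. Genome sequence was not used here.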

Additional observations from a re-analysis of the deposited data

Results flagged for a closer look

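In 4 of the genes named for the difference, every RNAi library lay on one side of every EV library in N2 and on the opposite side in lin-65. They were cnc-4 (difference -1.61 on the log2 scale, higher on RNAi in N2 and lower in lin-65), idpc-4 (-1.36, the same way), heri-1 (0.98, lower on RNAi in N2 and higher in lin-65) and adr-2 (0.82, as heri-1). The difference was tested by edgeR in each and did not pass, with adjusted p of 0.383, 0.574, 0.978 and 0.998. All 4 kept their sign in the 25 alternatives. They come from genes chosen by the difference, which favours opposite sides, so this is a description and no support for it. The wider pattern, with all 9 lin-65 differences beyond all 9 N2 differences, held for 320 of 14541 genes. The share of the opposite-side pattern over all genes is not given here. For idpc-4 the values were 19.6, 15.4 and 16.6 CPM on EV and 25.5, 35.5 and 23.3 CPM on RNAi in N2. In lin-65 they were 47.5, 36.8 and 38.7 CPM on EV and 25.2, 26.97 and 26.1 CPM on RNAi. For adr-2 they were 36.5, 58.5 and 47.6 CPM on EV and 31.3, 31.4 and 32.3 CPM on RNAi in N2. In lin-65 they were 39.5, 35.8 and 38.7 CPM on EV and 44.7, 48.4 and 41.2 CPM on RNAi.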

How the results depend on the processing

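In the 25 alternatives, the difference kept its direction for 24 genes (the 10 named as lower, the 10 as higher, cox-5B, lin-65, hsp-6 and hsp-60), and the met-2 gene, at -0.002, changed sign. It was 0.135 under limma voom with quality weights, 0.004 with library totals alone, 0.001 with no filter, 0.008 with the replicate block, 0.028 with the 3′ UTR trend removed and 0.112 with that trend removed and lin-65 EV replicate 1 left out, and -0.125 to 0.134 with single libraries left out. The cause was not tested here or below.

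The count of genes called for the difference was 0 in edgeR, and also 0 with all 18 libraries, median-of-ratios or total scaling, no filter, no robust step, the block within strain, or the trend removed. It was 23, all lower, with 16 libraries (18 less lin-65 EV replicate 1 and met-2 cco-1 RNAi replicate 1), 15, all lower, under DESeq2, 67 under limma voom (53 lower, 14 higher), 16, all lower, with the trend removed and lin-65 EV replicate 1 left out, and 340 under DESeq2 without that library (242 lower, 98 higher). Leaving out single libraries gave 0 to 7 calls, all lower. Calls for the N2 response, 417 in the main analysis, numbered 127 with 18 libraries, 2828 with 16, 1277 under DESeq2, 4117 under limma voom, 1885 with the trend removed and 3392 under DESeq2 (both without lin-65 EV replicate 1), and 54 to 2873 with single libraries left out. Calls for the lin-65 response, 106 in the main analysis, numbered 173 with 16 libraries, 480 under DESeq2, 1775 under limma voom, 370 under DESeq2 without lin-65 EV replicate 1, and 28 to 1101 with single libraries left out. The alternatives that remove the trend and DESeq2 without that library were chosen after seeing the data.

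With the replicate number as a block, a replicate block, the difference gave 1 call, lower, the N2 response 833 and the lin-65 response 207; with the block within strain the responses gave 828 and 188. Same-numbered libraries deviated together in 13 of 18 pairs (correlation over 0.1, range -0.188 to 0.507), and 9 of 12 libraries correlated best with their own number, a hint from the data, not the design. Not every pair was over 0.1 across the 4 groups of the difference, and no label ties the numbers to a batch, so the fit without the block was kept; within N2 all 3 pairs were.

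Medians of the genes chosen in met-2 moved when met-2 cco-1 RNAi replicate 1 was left out of the choice, to 1.188 in N2 and 0.967 in lin-65 for those that rose and -1.205 in lin-65 for those that fell, and with a prior count of 0.5 to 3.672 in N2 for those that rose. Depth sets a limit for low genes: 3 counts are up to 0.584 CPM, and the 95% interval over all genes reached a median of 0.934 log2 units to either side.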

Other observations

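The pharyngeal cuticle families of the named genes were counted as whole families after their values had been seen, so they carry no test. The same holds for the cuticlin, hedgehog-related and ttr genes. Over all genes tested, 7800 of 14541 had a difference below 0, and 3.2% were lower at an unadjusted p under 0.05 (9.37% without lin-65 EV replicate 1). All 7 idpc genes were tested, and all 7 had a difference below 0 and an unadjusted edgeR p under 0.05, with a median of -1.09; their median log2 change was 0.667 in N2 and -0.683 in lin-65. Of 11 abu genes tested all 11 were below 0, 7 of them at an unadjusted p under 0.05, with a median of -1.44, and 3 rose in N2. Of 49 pqn genes, 43 were below 0 and 12 at that level, with a median of -0.487, and 4 rose in N2. The abu and pqn genes resemble each other in sequence, so reads may be shared among them. The idpc-3 gene had 24.2, 19.9 and 22.1 CPM on EV and 31.3, 49.6 and 28.6 CPM on RNAi in N2. In lin-65 it had 40.6, 50.5 and 45.1 CPM on EV and 32.5, 40.1 and 36.5 CPM on RNAi. Cuticlin genes (28 tested, median -0.520, 24 below 0) and hedgehog-related wrt, grd and grl genes (37 tested, median -0.414, 28 below 0) had 3 and 6 genes lower at an unadjusted p under 0.05. The ttr genes, the family of ttr-14, had a median of -0.264 over 52 tested, with 39 below 0. Without lin-65 EV replicate 1 that median was -0.04. At an unadjusted p under 0.05, 2 ttr genes were lower and 1 higher (5.77%, against 4.28% over all genes).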
